A study of Homo sapiens with 4 samples.

Results

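The genes described here are 48 transcripts that proliferating cells make from the G1/S boundary to mitosis, out of 57820 genes in the deposited table. Of the 48, 22 are listed under S phase and 26 under G2/M. They were found in the table by their gene symbols, which gave 1 entry each, and all 48 averaged at least 1 FPKM over the libraries, so every member was among the 14068 genes tested. FPKM counts fragments relative to transcript length and to sequencing depth. The cells were A549, an established line from a human lung adenocarcinoma, called NRF2-activated in the title of the series, and the study asked which of its transcripts depend on CEBPB, a basic leucine zipper transcription factor of the C/EBP family. Of the 4 RNA-seq libraries, 1 was made from cells transfected with CEBPB siRNA-1, 1 from cells transfected with CEBPB siRNA-2 and 2 from cells transfected with control siRNA. In every library the medium was changed 24 h after transfection and RNA was taken 24 h later. The CEBPB siRNA libraries differ in the siRNA used, and nothing in the labels tells separate cultures from repeat libraries for the controls, so the p-values measure only the spread between these libraries, which may be technical between the controls.

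Cells that pass from G1 into S phase release E2F transcription factors from the pocket proteins of the RB family, and E2F then drives the genes for replication enzymes. Genes of G2 and mitosis are held down in G0 and G1 by the DREAM complex at CHR elements in their promoters, and are driven later by B-MYB and FOXM1. The levels of both gene sets in a growing culture therefore follow the share of cells in cycle as well as transcription per cell. In RNA from whole cultures, fewer cells in a phase and less RNA per cell cannot be told apart.

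Short promoter words that the phases are known for were counted in the genes of each phase. RefSeq promoter windows (build GRCh38.p14, 250 bases before to 50 after a gene start, 300 bases in all) were matched by symbol for 39 of the 48 genes, 18 of S phase and 21 of G2/M, and were searched on both strands. An E2F-type word, TTCCCGC or TTGGCGC, stood in 14 of 18 S phase and 2 of 21 G2/M genes, against 10.96% of all 27305 genes with a window. A CHR-type word, TTTGAA or TTCGAA, stood in 2 of 18 S phase and 15 of 21 G2/M genes, against 19.54% of all genes. CCAAT, the core of the NF-Y site, stood in 12 of 18 S phase and 18 of 21 G2/M genes, against 39.72% of all genes. CCAAT and a CHR-type word occurred together in the same window in 13 of 21 G2/M genes, against 7.848% of all genes. A C/EBP-type word, TTGCNNAA, was in 0 of 18 S phase genes and in 2 of 21 G2/M genes, BUB1B and CENPF, against 12.67% of all genes. These shares count a gene if any of its windows holds the word. By window, an E2F-type word stood in 57.69% of 26 S phase windows, against 9.232% of all 35116 windows. The background was every gene with a window, whether tested here or not, and was not matched for base composition. ATTGG, which is CCAAT read on the other strand, can share its letters with TTGGCGC, and a word is a match of letters, not a site shown to be bound.

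The 150 bases before the start are printed for 3 S phase and 3 G2/M genes whose values are described further on, in the order RRM2, PCNA, E2F1, PLK1, BUB1 and CDK1, 5′ to 3′ on the strand of the gene. Capitals mark CCAAT, E2F-type and CHR-type words on either strand. RRM2 (chr2:10122589-10122738, plus strand), PCNA (chr20:5126623-5126772, minus strand) and CDK1 (chr10:60778328-60778477, plus strand) have 2 windows each in the table, and the one with more words is shown. The others are E2F1 (chr20:33686386-33686535, minus strand), PLK1 (chr16:23678739-23678888, plus strand) and BUB1 (chr2:110678064-110678213, minus strand).
RRM2: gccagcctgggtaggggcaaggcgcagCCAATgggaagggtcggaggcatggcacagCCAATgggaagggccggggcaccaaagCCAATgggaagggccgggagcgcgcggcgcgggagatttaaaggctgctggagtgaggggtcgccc
PCNA: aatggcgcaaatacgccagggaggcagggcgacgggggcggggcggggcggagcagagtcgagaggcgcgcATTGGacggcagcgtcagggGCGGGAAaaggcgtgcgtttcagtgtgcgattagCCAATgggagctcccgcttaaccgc
E2F1: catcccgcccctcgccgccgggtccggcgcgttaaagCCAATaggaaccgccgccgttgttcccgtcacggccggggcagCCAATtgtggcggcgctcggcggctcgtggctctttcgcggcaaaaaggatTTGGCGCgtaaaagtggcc
PLK1: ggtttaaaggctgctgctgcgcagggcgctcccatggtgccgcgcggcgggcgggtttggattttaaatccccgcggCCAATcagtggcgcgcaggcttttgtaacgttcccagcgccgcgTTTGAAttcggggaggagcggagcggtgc
BUB1: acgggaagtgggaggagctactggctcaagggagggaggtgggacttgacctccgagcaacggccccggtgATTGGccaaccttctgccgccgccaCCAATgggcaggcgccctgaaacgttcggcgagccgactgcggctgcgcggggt
CDK1: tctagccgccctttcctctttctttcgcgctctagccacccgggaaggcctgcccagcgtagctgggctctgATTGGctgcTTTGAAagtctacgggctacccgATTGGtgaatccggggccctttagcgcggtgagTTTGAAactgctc

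In the RRM2 stretch CCAAT is repeated 3 times, its first base 123, 93 and 66 bases before the start, and the E2F-type word of this gene lies in its other window. PCNA has CCAAT on either strand around an E2F-type word, and E2F1 has its E2F-type word 19 bases before its own start. PLK1 has CCAAT 73 bases and TTTGAA 29 bases before the start. CDK1 has ATTGG followed by TTTGAA at 2 places, the words beginning 78 and 69 bases and then 46 and 13 bases before the start. In BUB1 the CHR-type word, TTCGAA, begins 2 bases past the start and so outside the printed stretch.

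CEBPB itself (ENSG00000172216.4) was at 12.9 FPKM with siRNA-1 and 10.97 FPKM with siRNA-2, against 78.7 and 80.9 FPKM with control siRNA. It fell by 2.65 ± 0.17 (SE) on the log2(FPKM + 1) scale (limma adjusted p = 0.0167); without control 1 that adjusted p was 0.461 and without control 2 it was 0.328. The libraries summed to 494066 and 502651 FPKM with CEBPB siRNA, against 513055 and 528606 FPKM with control siRNA, and the authors' mean normalized counts summed to 8341083 over all genes. Keratin, EPCAM and CDH1 transcripts of epithelial cells summed to 1824 and 2841 FPKM with CEBPB siRNA, against 3600 and 5058 FPKM with control siRNA. KRT8 and KRT18 made up nearly all of that sum; KRT19 was at 5.32 and 7.38 FPKM with CEBPB siRNA, against 2.41 and 3.28 FPKM with control siRNA, and CDH1 overlapped between the groups. Of 4 lung lineage genes, NKX2-1 and SFTPB were listed at 0 in all 4 libraries, SFTPC was listed above 0 in control 1 alone at 0.914 FPKM, and NAPSA was at 1.09 and 0.468 FPKM with CEBPB siRNA, against 0.890 and 0.586 FPKM with control siRNA. Of 10 markers of leukocytes, erythroid cells, endothelium and fibroblasts, 7 were listed at 0 in every library, and the summed level of the 10 was 4.47 and 2.23 FPKM with CEBPB siRNA, against 0.717 and 0.573 FPKM with control siRNA. The fibroblast collagen gene COL1A1 was the marker among them that reached 1 FPKM. The part of these differences in the results on cell cycle genes was not tested.

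The cell cycle genes were abundant. Their median control level was 54.6 FPKM, at the 89.6th percentile of the tested genes, whose median was 9.50 FPKM. The median was 32.5 FPKM for S phase genes and 67.0 FPKM for G2/M genes. In the controls PCNA was first with a mean of 393 FPKM, followed by RRM2 with 150.02 FPKM, MCM7 with 148 FPKM and UBE2C with 133 FPKM. The control values of RRM2 spanned those of MCM7 and reached into those of UBE2C, so the order of RRM2 among them is not beyond its spread. At the low end stood CENPE with 13.8 FPKM, POLA1 with 13.6 FPKM, CHAF1B with 11.3 FPKM and CCNE2 with 1.75 FPKM. The authors' mean normalized counts behind these values ranged between 43.0 for CCNE2 and 8479 for MKI67, with a median of 1053, so that of the 48 genes CCNE2 was measured from the fewest reads.

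**Figure D1:**
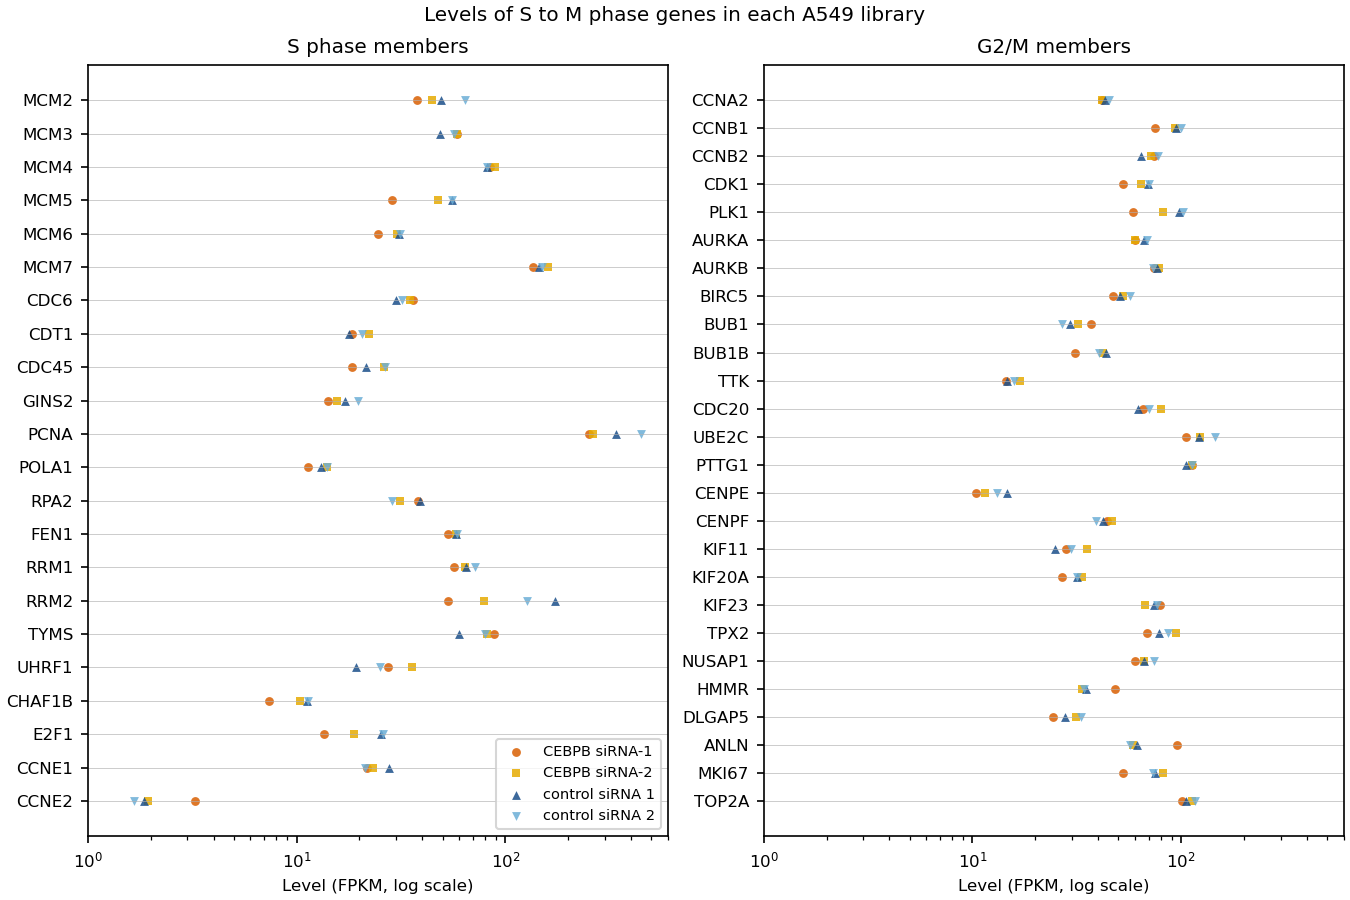
Level of each S phase gene (left) and G2/M gene (right) in FPKM on a log axis, 1 point per library: CEBPB siRNA-1 and siRNA-2 (orange and yellow), control siRNA 1 and 2 (dark and light blue). Most genes have their 4 points close together; in RRM2 and PCNA both CEBPB siRNA points lie left of both control points, and CCNE2 lies far below the others.

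With CEBPB reduced, no replication or mitosis gene of the 48 passed the main test, which pools the siRNAs. The limma estimate was under 2-fold in every gene but RRM2. In limma, 0 of 22 S phase and 0 of 26 G2/M genes had an adjusted p below 0.05, where 0.235% of all tested genes did (0.064% higher and 0.171% lower), a background at which 48 genes give few or no calls. In the authors' deposited table the count was also 0 of 22 and 0 of 26, where 4.14% of the 14675 genes with an adjusted p were called. At an unadjusted p below 0.05, limma listed 3 S phase genes, RRM2, PCNA and E2F1, and 1 G2/M gene, PLK1. All were lower with CEBPB siRNA, where 5.13% of all tested genes were lower and 12.2% passed in either direction. In the authors' deposited comparison, 4 S phase genes were lower at an unadjusted p below 0.05, namely RRM2, PCNA, E2F1 and MCM5, and no G2/M gene passed it. Of the genes with an adjusted p there, 3.99% were lower at that level and 11.5% passed it in either direction. A limma fit with the siRNAs as separate groups called 3 of 22 S phase and 0 of 26 G2/M genes. It called 971 of the 14068 tested genes in all, as given with the dependence on processing. When the siRNA-2 library was left out, RRM2, E2F1, MCM5 and PLK1 were called lower and ANLN higher in limma, among 1764 of all tested genes; the other libraries left out in turn gave no call among the 48.

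The median log2 change, CEBPB siRNA over control siRNA, was -0.10 for S phase genes and -0.061 for G2/M genes, beside 0.0010 over all tested genes. A lower mean with CEBPB siRNA was found in 14 of 22 S phase genes and 16 of 26 G2/M genes, which is 63.6% and 61.5%, beside 49.9% of all tested genes. The authors' deposited table gives medians of -0.157 and -0.0336, beside -0.022 for the tested genes that have an adjusted p there. The median size of the change without regard to sign was 0.192 for S phase and 0.143 for G2/M genes, beside 0.219 over all tested genes. The 95% interval of the log2 change lay wholly within a 2-fold change in either direction for 16 of 22 S phase and 25 of 26 G2/M genes, and for 69.1% of all tested genes. PLK1 was the G2/M gene whose interval reached past that bound. The median SE was smaller in these abundant genes, at 0.190 for S phase and 0.175 for G2/M genes, beside 0.225 over all tested genes. The shares and sizes were not compared with genes of like level.

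**Figure D2:**
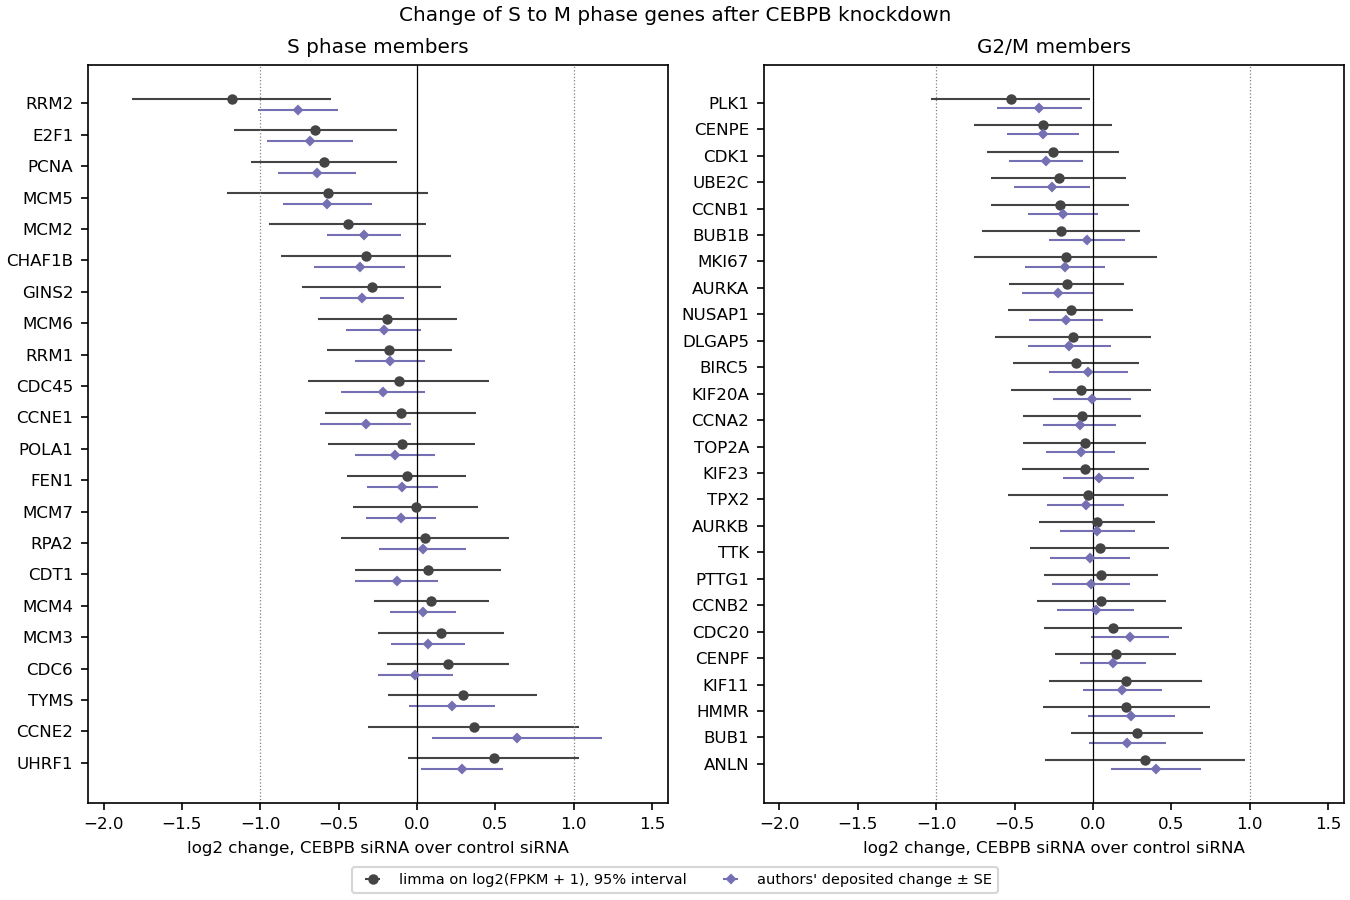
Log2 change of each S phase gene (left) and G2/M gene (right), CEBPB siRNA over control siRNA: black points are limma estimates on log2(FPKM + 1) with 95% intervals, purple diamonds the authors' deposited log2 changes ± SE. Dotted lines mark a 2-fold change. RRM2 lies farthest left, at -1.18 in limma and -0.76 in the authors' deposited table, and the other estimates lie within the dotted lines.

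The groups did not overlap in 15 of 22 S phase genes, 6 with both CEBPB siRNA libraries above both controls and 9 with both below. Of 26 G2/M genes 8 did not overlap, 2 above and 6 below. Over all tested genes this share was 44.5%, with 23.5% above and 21.0% below. The share was thus 68.2% in the S phase genes and 30.8% in the G2/M genes.

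**Figure D3:**
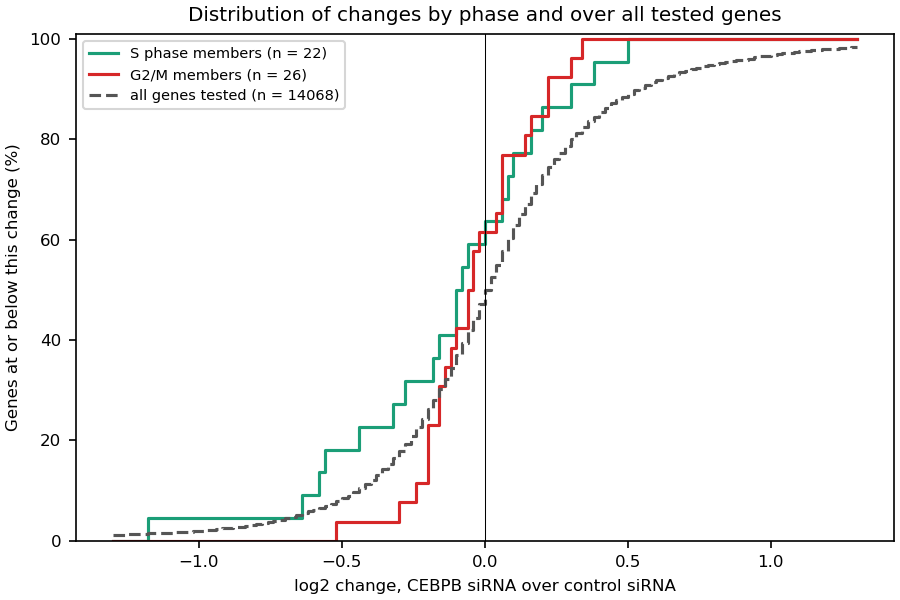
Cumulative share of genes (percent) at or below each log2 change, CEBPB siRNA over control siRNA, for S phase genes (green), G2/M genes (red) and all tested genes (dashed; changes beyond the axis are not drawn). At a change of -0.5 the S phase line stands at 18.2%, the G2/M line at 3.85% and all tested genes at 8.45%.

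The largest estimated change was that of a gene for the supply of deoxynucleotides. RRM2, the regulatory subunit of ribonucleotide reductase, which makes the deoxynucleotides for replication, was at 53.2 FPKM with siRNA-1 and 78.7 FPKM with siRNA-2, against 173 and 127 FPKM with control siRNA. Both CEBPB siRNA libraries lay below both controls, and the means were 66.0 ± 17.99 FPKM with CEBPB siRNA and 150.02 ± 32.1 FPKM with control siRNA (SD, n = 2 each). The log2 change was -1.18 ± 0.26 (SE, 95% interval -1.82 to -0.55), with a limma adjusted p of 0.176. In the authors' deposited table it is -0.76 ± 0.26, with an adjusted p of 0.0634, and of all 48 genes RRM2 is the one on which the FPKM and the authors' counts differ most. An exon of RRM2 overlaps another gene, AC007240.1, on the same strand in GENCODE 29, and the pseudogene RRM2P3 was listed at 0.777 and 1.12 FPKM with CEBPB siRNA, against 1.74 and 1.01 FPKM with control siRNA.

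The partner subunit of RRM2 and the enzyme for thymidylate had smaller estimates. RRM1, the catalytic subunit of ribonucleotide reductase, was at 56.6 and 63.8 FPKM with CEBPB siRNA, against 65.0 and 71.4 FPKM with control siRNA, a log2 change of -0.18 ± 0.16 (SE). TYMS, the thymidylate synthase, was at 88.2 and 81.6 FPKM with CEBPB siRNA, against 60.1 and 79.7 FPKM with control siRNA, a change of 0.29 ± 0.19 in the other direction. Whether RRM2 differed from these genes in its change was not tested. DUT, the dUTPase that keeps uracil out of DNA and the gene with the smallest limma p among 48 further S phase genes, was at 24.0 and 25.2 FPKM with CEBPB siRNA, against 36.7 and 37.7 FPKM with control siRNA. Its log2 change was -0.58 ± 0.16, with a limma adjusted p of 0.249, and -0.41 with an adjusted p of 0.736 in the authors' deposited table.

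PCNA, the sliding clamp that holds DNA polymerases on their template, was the most abundant of the 48 genes in every library. It was at 253 and 262 FPKM with CEBPB siRNA, against 339 and 447 FPKM with control siRNA, so that the CEBPB siRNA libraries were close together and both below the controls. Its log2 change was -0.59 ± 0.19 (SE), with a limma adjusted p of 0.301 and, in the authors' deposited table, a change of -0.64 with an adjusted p of 0.149. The other genes of the replication fork had smaller estimates, and whether PCNA differed from them in its change was not tested. The log2 change was -0.099 ± 0.19 for POLA1, the catalytic subunit of the polymerase that makes primers, 0.049 ± 0.22 for the single-strand binding subunit RPA2, and -0.066 ± 0.15 for FEN1, the nuclease that trims Okazaki fragments, each with overlapping libraries.

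E2F1, the transcription factor that drives S phase genes and is itself made at the G1/S boundary, was at 13.5 FPKM with siRNA-1 and 18.9 FPKM with siRNA-2, against 25.3 and 25.96 FPKM with control siRNA. The log2 change was -0.65 ± 0.21 (SE), with a limma adjusted p of 0.311 and, in the authors' deposited table, a change of -0.68 with an adjusted p of 0.171. The E-type cyclins, which activate CDK2 at the entry into S phase, gave no common direction. CCNE1 was at 21.6 and 23.2 FPKM with CEBPB siRNA, against 27.6 and 21.2 FPKM with control siRNA, and overlapped between the groups. CCNE2 was at 3.25 FPKM with siRNA-1 and 1.94 FPKM with siRNA-2, against 1.85 and 1.66 FPKM with control siRNA, a log2 change of 0.36 ± 0.27. Its value with siRNA-2 lay next to the controls.

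The subunits of the MCM helicase, which unwinds DNA at the fork as a ring of MCM2 to MCM7, lay on both sides of their controls. MCM5 was at 28.8 FPKM with siRNA-1 and 47.5 FPKM with siRNA-2, against 55.5 and 55.4 FPKM with control siRNA, a log2 change of -0.57 ± 0.26 (SE) with a limma adjusted p of 0.464. In the authors' deposited table it is -0.57 with an unadjusted p of 0.0435 and an adjusted p of 0.404. MCM2 was at 37.6 and 44.6 FPKM with CEBPB siRNA, against 49.0 and 64.0 FPKM with control siRNA, a change of -0.44 ± 0.20 with a limma adjusted p of 0.465. MCM6 also had both CEBPB siRNA libraries below both controls, at 24.4 and 30.4 FPKM against 31.1 and 31.3 FPKM with control siRNA. MCM3 and MCM4 had both above, with changes of 0.15 ± 0.16 and 0.092 ± 0.15, and MCM7 overlapped, with a change of -0.0068 ± 0.16. None of these 6 genes passed the test. All 6 were lower with siRNA-1 than with siRNA-2, beside 56.2% of all tested genes, but MCM3 was nearly equal, with a log2 difference of -0.0029.

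Among the loading and activating factors of the helicase, CDC6 had a log2 change of 0.20 ± 0.16 (SE) and CDT1, its partner in loading, one of 0.070 ± 0.19. In the authors' deposited table the changes of CDC6 and CDT1 are -0.010 and -0.13, so their direction is not settled. CDC45 and GINS2, which join MCM in the active helicase, had changes of -0.12 ± 0.23 and -0.29 ± 0.18. Of the chromatin factors, UHRF1, which directs maintenance methylation to new DNA, was at 27.3 and 35.7 FPKM with CEBPB siRNA, against 19.3 and 24.9 FPKM with control siRNA. Its log2 change of 0.49 ± 0.22, with a limma adjusted p of 0.463, was the largest positive one among the 48 genes in limma; in the authors' deposited table it is 0.29 with an adjusted p of 0.907. CHAF1B, a subunit of the chromatin assembly factor CAF-1, was at 7.39 and 10.4 FPKM with CEBPB siRNA, against 11.2 and 11.3 FPKM with control siRNA.

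No gene of cyclin B with CDK1, the kinase that starts mitosis, passed the test. CDK1 was at 52.7 and 64.2 FPKM with CEBPB siRNA, against 69.1 and 70.0 FPKM with control siRNA, a log2 change of -0.25 ± 0.17 (SE) with a limma adjusted p of 0.607. The change was -0.21 ± 0.18 for CCNB1, 0.054 ± 0.17 for CCNB2 and -0.071 ± 0.15 for CCNA2, the cyclin of S and G2 phase. The values of CCNA2 were 41.9 FPKM with either CEBPB siRNA, against 43.3 and 44.9 FPKM with control siRNA, so that the groups did not overlap although the values lay close together.

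PLK1, a kinase of centrosome maturation and mitotic entry, gave the largest estimated change among the G2/M genes in limma; in the authors' deposited table that of ANLN is larger, at 0.40. It was at 58.4 FPKM with siRNA-1 and 81.4 FPKM with siRNA-2, against 97.3 and 102 FPKM with control siRNA. The log2 change was -0.52 ± 0.20 (SE), with a limma adjusted p of 0.391, beside -0.34 in the authors' deposited table, with an adjusted p of 0.842. PLK1 shares exon sequence with ERN2 and an antisense transcript on the other strand. Of the Aurora kinases, AURKA had both CEBPB siRNA libraries below both controls, at 60.2 and 59.9 FPKM against 66.4 and 68.7 FPKM with control siRNA. Its log2 change was -0.17 ± 0.15. AURKB overlapped between the groups, with a change of 0.025 ± 0.15. BIRC5, the survivin subunit of the complex that carries AURKB, had a change of -0.11 ± 0.16.

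The spindle checkpoint genes, which hold anaphase until chromosomes are attached, had estimates on either side of 0. BUB1 was at 36.9 and 31.9 FPKM with CEBPB siRNA, against 29.5 and 26.8 FPKM with control siRNA, a log2 change of 0.28 ± 0.17 (SE) with a limma adjusted p of 0.574. The related BUB1B was at 31.0 and 42.3 FPKM with CEBPB siRNA, against 43.4 and 40.4 FPKM with control siRNA, and the kinase TTK had a change of 0.042 ± 0.18. The anaphase genes all overlapped. UBE2C, the ubiquitin-conjugating enzyme of the anaphase-promoting complex, was at 106 and 122 FPKM with CEBPB siRNA, against 121 and 145 FPKM with control siRNA, a change of -0.22 ± 0.17 with a limma adjusted p of 0.665. CDC20, an activator of that complex, had a change of 0.13 ± 0.18 and PTTG1, the securin, one of 0.052 ± 0.15.

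The kinesin of the kinetochore, CENPE, was at 10.4 and 11.4 FPKM with CEBPB siRNA, against 14.6 and 13.1 FPKM with control siRNA, a log2 change of -0.32 ± 0.18 (SE) with a limma adjusted p of 0.547. CENPF, another kinetochore protein, had both CEBPB siRNA libraries above both controls with a change of 0.14 ± 0.16. The spindle motor KIF11 and the midzone motors KIF20A and KIF23 had changes of 0.21 ± 0.20, -0.075 ± 0.18 and -0.048 ± 0.16, with overlapping libraries. Among the genes of spindle assembly and cytokinesis, TPX2, NUSAP1 and DLGAP5 had changes of -0.030 ± 0.20, -0.14 ± 0.16 and -0.13 ± 0.20. TOP2A, the topoisomerase that untangles sister chromatids, had a change of -0.052 ± 0.16. ANLN, HMMR and MKI67 are described with the comparison of the siRNAs, because the siRNA libraries differed most in them among the G2/M genes.

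Values of the 2 siRNAs were set against each other in a fit with 3 groups, whose spread comes from the controls alone and which assumes that the siRNA libraries vary as they do. None of the 48 genes passed an adjusted p of 0.05 there, where 0.441% of all tested genes did. With siRNA-1 18 of 22 S phase genes and 18 of 26 G2/M genes were below their level with siRNA-2, together 36 of the 48, beside 56.2% of all tested genes, and 34 of the 48 lay below the all-gene median of that difference. The median difference, siRNA-1 minus siRNA-2, was -0.20 for S phase and -0.15 for G2/M genes on the log2 scale, beside -0.064 over all tested genes. Against the mean of the controls, the siRNA-1 library had an S phase median of -0.197 and the siRNA-2 library one of -0.0206. For G2/M genes the median was -0.147 in the siRNA-1 library and 0.0196 in the siRNA-2 library, so that it changed sign between them. Over all tested genes it was -0.034 in the siRNA-1 library and 0.040 in the siRNA-2 library. The summed level of the S phase genes was 1083 FPKM with siRNA-1 and 1209 FPKM with siRNA-2, against 1330 and 1450 FPKM with control siRNA. Abundant genes weigh most in such a sum, and much of the difference lay in PCNA and RRM2. PCNA was at 253 and 262 FPKM with CEBPB siRNA, against 339 and 447 FPKM with control siRNA. RRM2 was at 53.2 and 78.7 FPKM, against 173 and 127 FPKM. The summed level of the G2/M genes was 1487 FPKM with siRNA-1 and 1621 FPKM with siRNA-2, against 1573 and 1666 FPKM with control siRNA, the siRNA-2 library lying between the controls.

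**Figure D4:**
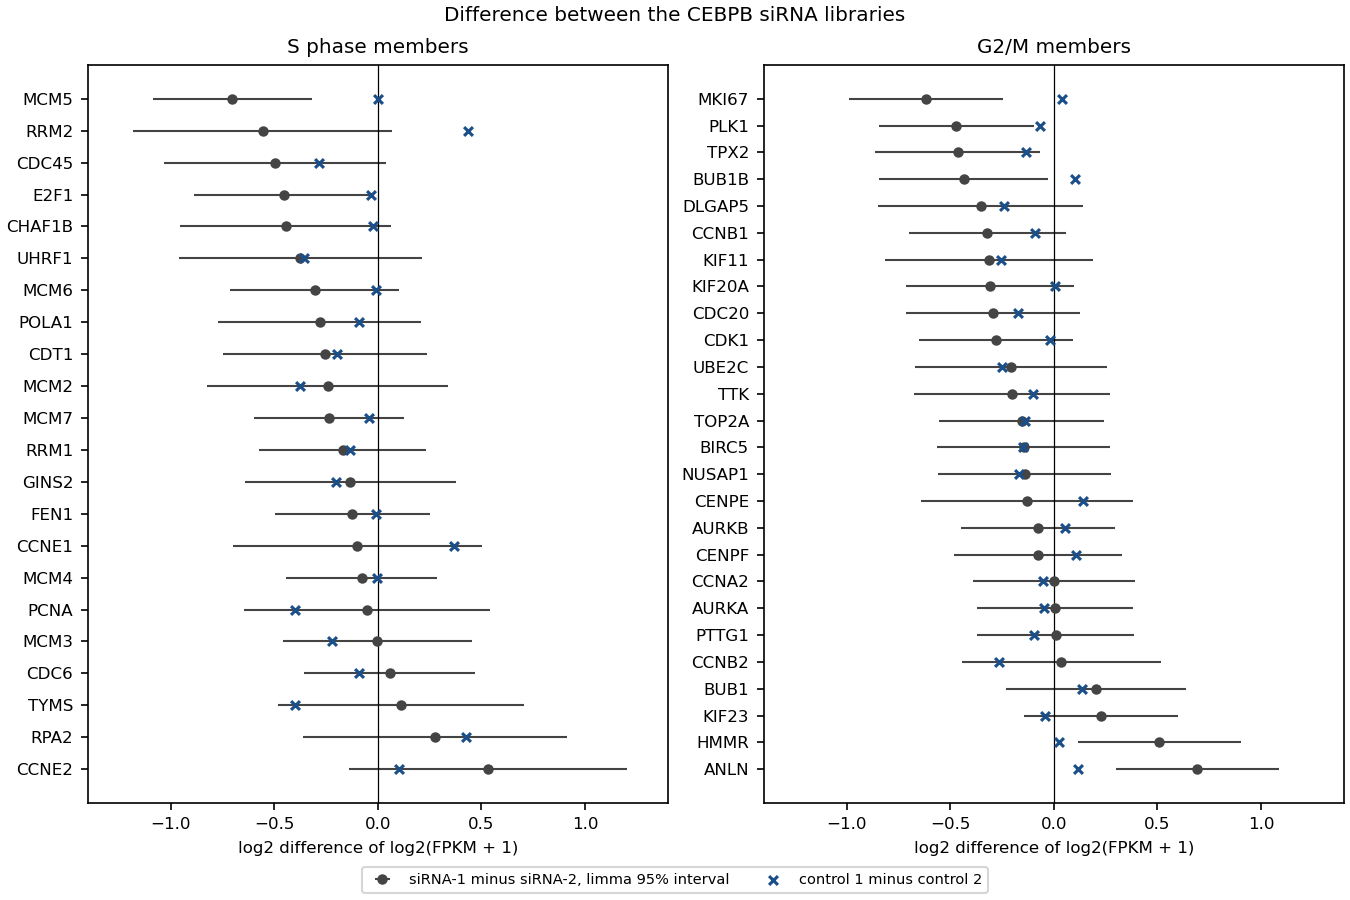
Difference between the CEBPB siRNA libraries in log2(FPKM + 1), siRNA-1 minus siRNA-2, for each S phase gene (left) and G2/M gene (right): points with limma 95% intervals, and crosses for control 1 minus control 2. Points lie left of 0 for 36 of the 48 genes; MCM5 and MKI67 are at the left end of their panels, and CCNE2 and ANLN at the right end.

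At an unadjusted p below 0.05, MCM5 and E2F1 of S phase and MKI67, PLK1, TPX2 and BUB1B of G2/M were lower with siRNA-1 than with siRNA-2, and ANLN and HMMR were higher. These are 8 of 48 genes, where 22.4% of all tested genes passed that level (9.02% higher and 13.4% lower). MCM5 differed by -0.70 ± 0.15 (SE) on the log2 scale, with a limma adjusted p of 0.0931. MKI67, the proliferation antigen Ki-67 that coats mitotic chromosomes, was at 52.7 FPKM with siRNA-1 and 81.3 FPKM with siRNA-2, against 75.1 and 73.0 FPKM with control siRNA. The siRNA libraries lay on either side of the controls, and differed by -0.62 ± 0.14 with a limma adjusted p of 0.106. ANLN, the anillin scaffold of the cleavage furrow, was at 95.1 FPKM with siRNA-1 and 58.4 FPKM with siRNA-2, against 61.6 and 56.8 FPKM with control siRNA. Its siRNA-1 value lay above the other 3 libraries, and the siRNAs differed by 0.69 ± 0.15 with a limma adjusted p of 0.0981. HMMR, a hyaluronan receptor that also acts at the spindle, was at 48.2 FPKM with siRNA-1 and 33.6 FPKM with siRNA-2, against 34.9 and 34.2 FPKM with control siRNA, a difference of 0.51 ± 0.15 with a limma adjusted p of 0.158. RRM2 differed by -0.55 ± 0.24 between the siRNAs with a limma adjusted p of 0.264, although it lay below the controls with both.

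The regulators that stand above these genes were looked at through lists of their pathway. Of 23 G1 and pocket protein regulators 19 were tested, and none passed in limma, where 0.235% of all tested genes did. By the authors' deposited table, 2 were higher and 1 was lower at an adjusted p below 0.05, out of 20 with an adjusted p, where 4.14% of all genes were called. CCND3, a D-type cyclin that activates CDK4 and CDK6 against RB, was at 39.8 FPKM with siRNA-1 and 70.9 FPKM with siRNA-2, against 174 and 200 FPKM with control siRNA. The log2 change was -1.79 ± 0.29 (SE) with a limma adjusted p of 0.110, and it fell by 1.73 in the authors' deposited table, with an adjusted p of 1.2e-06. CDK6, a partner kinase of the D-type cyclins, was at 27.2 and 24.7 FPKM with CEBPB siRNA, against 10.7 and 10.4 FPKM with control siRNA. The change was 1.22 ± 0.17 with a limma adjusted p of 0.0926, and in the authors' deposited table it rose by 1.33 with an adjusted p of 7.4e-07. CDKN1A, which encodes the CDK inhibitor p21, was at 42.7 FPKM with siRNA-1 and 25.2 FPKM with siRNA-2, against 14.6 and 15.5 FPKM with control siRNA. The change was 1.08 ± 0.27 with a limma adjusted p of 0.224, and in the authors' deposited table it rose by 1.15 with an adjusted p of 0.0148.

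**Figure D5:**
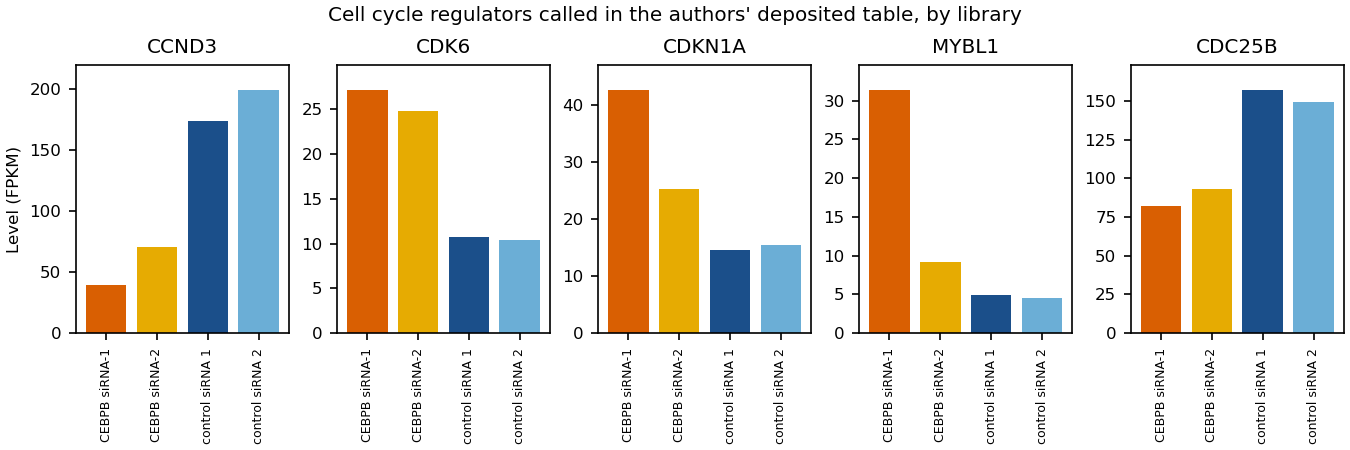
Level in FPKM of CCND3, CDK6, CDKN1A, MYBL1 and CDC25B in each library, 1 bar per library and an axis from 0 for each gene. Both CEBPB siRNA bars lie on the same side of both control bars in all 5 genes, and MYBL1 is at 31.4 FPKM with siRNA-1 and 9.18 FPKM with siRNA-2, against 4.94 and 4.47 FPKM with control siRNA.

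Of 20 factors of DREAM, E2F and the B-MYB and FOXM1 complexes, none passed in limma and 1 was higher in the authors' deposited table, a count near the 0.235% and 4.14% called among all genes. That gene was MYBL1, encoding the MYB family factor A-MYB, at 31.4 FPKM with siRNA-1 and 9.18 FPKM with siRNA-2, against 4.94 and 4.47 FPKM with control siRNA. Its log2 change was 1.67 ± 0.53 (SE) with a limma adjusted p of 0.302, and in the authors' deposited table it rose by 1.78 with an adjusted p of 0.0013. The siRNAs differed by 1.67 on the log2 scale, with a limma adjusted p of 0.0542. TFDP2, a dimer partner of E2F and the gene of this list with the smallest p in limma, was at 7.94 and 8.47 FPKM with CEBPB siRNA, against 2.90 and 3.91 FPKM with control siRNA. Its log2 change of 1.07 ± 0.21, with a limma adjusted p of 0.157, stands against -0.107 with an adjusted p of 0.999 in the authors' deposited table, so the direction is not settled by these files.

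Of 48 further S phase genes and 71 further G2/M genes, 0 passed in limma, where 0.235% of all tested genes did, with median log2 changes of -0.048 and -0.017. By the authors' deposited table, 0 of the further S phase genes and 1 of the further G2/M genes were called, where 4.14% of all genes were. The gene called was CDC25B, a phosphatase that activates CDK1 at the start of mitosis, at 82.3 and 92.9 FPKM with CEBPB siRNA, against 157 and 150 FPKM with control siRNA. Its log2 change was -0.80 ± 0.15 (SE) with a limma adjusted p of 0.148, and it fell by 0.79 in the authors' deposited table, with an adjusted p of 0.0087.

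Within a phase, the changes of genes with and without the promoter words overlapped. The 14 S phase genes with an E2F-type word had a median log2 change of -0.14, beside -0.11 in the 4 without one. The 15 G2/M genes with a CHR-type word had a median of -0.048, beside -0.073 in the 6 without one. The range of changes was -1.18 to 0.49 in the S phase genes with an E2F-type word and -0.52 to 0.33 in the G2/M genes with a CHR-type word, so each group held both the lowest and the highest gene of its phase among those with a window.

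The FPKM and the authors' counts gave like values for most of the 48 genes. Their log2 changes differed by a median of 0.050, had the same sign in 43 of 48 genes, and differed by over 0.2 in 5, namely RRM2, CCNE2, CCNE1, CDC6 and UHRF1. The sign differed in CDC6, CDT1, TTK, PTTG1 and KIF23. Pseudogenes and close copies of these genes had 18 entries in the table, of which 2 reached 1 FPKM in a library, CDC20P1 and RRM2P3. In GENCODE 29, exons of 5 of the 48 genes overlap another gene on the same strand and exons of 13 overlap one on the opposite strand. These include TYMS with ENOSF1, BUB1B with BUB1B-PAK6 and FEN1 with FADS2. The libraries are strand-specific per the labels, and whether the counting used the strand is not given in the sources used here, so values of these genes are less certain.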

How the data were processed

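Strand-specific total RNA libraries of A549 cells were read as 76-base single-end reads, per the labels. The submitters' processing notes name build hg19 and the tools STAR 2.7.0d, HTSeq 0.13.5, StringTie 2.1.4 and DESeq2 1.26.0 without their roles. The authors normalized the deposited values, 1 per gene and library, to transcript length and depth (FPKM); this unit is not named in the header and was read from StringTie-like headers and unequal column sums. Counts per library were not used here. Per the file headers, the authors also deposited a DESeq2 comparison with a signal (mean count after size factors), a log2 fold change and its SE, a score (Wald statistic), a p-value and an adjusted p-value; its direction was read from the FPKM columns.

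The main test was limma 3.58.1 in R 4.3.3 on log2(FPKM + 1) with its variance trend, over genes that averaged 1 FPKM or more, without a block, two-sided, with Benjamini-Hochberg adjustment at 0.05; it understates changes of low genes and had 2 residual degrees of freedom plus 3.61 from the prior. An exact permutation test of 2 against 2 cannot go below p = 0.333. The fit between siRNAs had 1 residual degree of freedom, from the controls, plus 3.92. All 48 members were accounted for by role. Values per library were to be given for the 6 members of each phase with the smallest p, the 3 per phase that differed most between siRNAs, pathway genes called in either comparison and the gene of each list with the smallest limma p; those printed for other members, to describe their role group, were chosen after values were seen. Members and lists were chosen with earlier results of these data known. The code was tested on simulated data. RefSeq promoters (GRCh38.p14) were used for sequence only.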

Additional observations from a re-analysis of the deposited data

How the results depend on the processing

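The count of genes called in limma (33 of all tested) was 0 with no filter on low values (2438 at an unadjusted p below 0.05), 971 with the siRNAs as separate groups (538 higher, 433 lower) and 607 in the authors' deposited table (398 higher, 209 lower). It ranged between 0 and 1764 when each library was left out in turn: 1764 without siRNA-2, 72 without siRNA-1, and 0 without control 1 (736 at an unadjusted p below 0.05) and without control 2 (685). With the siRNAs as separate groups 3 S phase genes were called, RRM2, E2F1 and MCM5, all lower (adjusted p = 0.0277, 0.0465 and 0.0468), as were the pathway genes CCND3, CDK6, CDKN1A, MYBL1, TFDP2 and CDC25B (adjusted p between 0.0077 and 0.0442). When each library was left out the S phase count ranged between 0 and 3 and the G2/M count between 0 and 2; the calls came without siRNA-2, where the siRNA-1 library stands alone and is assumed to vary like the controls, and were RRM2, MCM5, E2F1, PLK1 (log2 change -0.76) and ANLN (0.68). Without siRNA-1 the log2 changes were nearer 0 by over 1.5 times for MCM5 (-0.22), PLK1 (-0.29), E2F1 (-0.42), CCNE2 (0.096), CDK1 (-0.11), UBE2C (-0.12), BUB1 (0.18), CDKN1A (0.71) and MYBL1 (0.84). Other estimates depended on which control was left out. Without control 1 and without control 2, the log2 change was -0.63 and -0.25 for MCM2 and -0.79 and -0.395 for PCNA. It was -0.34 and -0.095 for UBE2C, and 0.31 and 0.67 for UHRF1. With each library left out in turn, the S phase median ranged between -0.197 without siRNA-2 and -0.0206 without siRNA-1. The G2/M median ranged between -0.147 without siRNA-2 and 0.0196 without siRNA-1. Leaving out each library, the log2 change ranged between -0.041 and 0.47 for HMMR, -0.016 and 0.68 for ANLN, and -0.48 and 0.13 for MKI67, with the sign changed without siRNA-1; TFDP2 (-0.107) changed sign in the authors' deposited table; the cause was not tested. Between the siRNAs, 3 members were called at a mean of at least 5 FPKM, MCM5 and MKI67 lower and ANLN higher, among 1293 of 9511 genes called in that fit; over the alternatives the count of all genes called between the siRNAs ranged between 0 (upper-quartile scaling) and 1915 (no filter). A fit without a control has no residual degrees of freedom and gave no value. The call of CEBPB was lost with no filter (adjusted p = 0.262) and without either control. With the replicate number as a block 25 genes were called, 0 of them S phase and 0 G2/M members; same-numbered libraries had a correlation of deviations of 0.0754, so the number was not read as a pairing. A pseudocount of 0.1, a mean of at least 5 FPKM, and median-of-ratios or upper-quartile scaling left both member counts at 0 between CEBPB and control siRNA. The median half-width of the members' 95% intervals was 0.444 on the log2 scale.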
